A study of Mus musculus with 3 samples.

Results

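Chrm2, Adrb1, Adora1, Rgs2, Rgs4, Rgs6, Gnas, Gnai2 and Gnao1 encode receptors for autonomic and metabolic signals on heart muscle, the G protein alpha subunits they act through, and regulators of those subunits. They were taken by symbol from the gene lists of 3 single-cell RNA libraries, where each symbol matched 1 of 28001 features, so 9 of 28001 features are described. Their levels were followed through the cardiomyocytes of each library and through the other cell classes that surround them.

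The libraries were made from ICR mice at postnatal day 2 with the genotype HCN4H2BGFP, in which a histone-tagged nuclear GFP is made from the locus of the pacemaker channel HCN4. All 3 groups carried this allele. The GFP-positive and GFP-negative libraries hold cells of the sinoatrial node region sorted by flow cytometry for or against GFP, and the third library, titled RA, was not sorted. Its labels also give its tissue as the sinoatrial node region, so where it was cut is not settled and only its title is used. Each group was 1 library, the number of animals is not given, and no other sort gate is named.

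Pacemaker cells of the sinus node set the heartbeat and are the point where the autonomic nerves act on its rate. Noradrenaline binds beta-adrenergic receptors, which act through the stimulatory alpha subunit to raise cyclic AMP and speed the beat. Acetylcholine binds the muscarinic M2 receptor, and adenosine binds the A1 receptor, and both act through inhibitory Gi and Go proteins that lower cyclic AMP and, through beta-gamma subunits, open the potassium channel built from Kcnj3 and Kcnj5. RGS proteins speed the hydrolysis of GTP on the alpha subunit and so end the signal.

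Barcodes under 500 genes or over 50% mitochondrial transcripts were dropped. Transcripts were counted by unique molecular identifiers (UMIs, 1 for each captured molecule). This left 3289 of 3346 barcodes in the GFP-positive library, 3032 of 3276 in the GFP-negative library and 1289 of 1450 in RA. A cell was a cardiomyocyte when the sarcomere genes Tnnt2, Myh6, Actc1, Tnni3 and Myl7 together made up at least 2% of its UMIs. That gave 169 cells in the GFP-positive library, 64 in the GFP-negative library and 73 in RA, with median depths of 19595, 13294.5 and 10258 UMIs. Shox2, a homeobox factor of the sinus node, was at 439, 6.72 and 0 counts-per-million (CPM) in the same order, the GFP reporter at 128, 0 and 0 CPM, and the atrial peptide gene Nppa at 1704, 9552 and 13884 CPM.

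A second difference between these cells touches every value below. Among the gated cardiomyocytes, 1 GFP-positive, 23 GFP-negative and 32 RA cells had under 1% mitochondrial UMIs, and these cells had low Malat1 (2361 CPM in the GFP-negative and 1121 CPM in the RA library, against 9805 and 12584 CPM in the others). The members' ratios between libraries were therefore computed also for the 168, 41 and 41 cardiomyocytes with at least 1% mitochondrial UMIs. RNA of neighbouring cells was present in unequal amounts: the 8 endothelial markers, all detected in each library, summed to 474 CPM in GFP-positive, 38.1 in GFP-negative and 61.5 CPM in RA cardiomyocytes, and the 8 fibroblast markers, also all detected, to 214, 1759 and 1141 CPM. At least 3 endothelial markers were read in 154 of 169 GFP-positive, 0 of 64 GFP-negative and 4 of 73 RA cardiomyocytes. At least 3 fibroblast markers were read in 36, 53 and 60 of them. Most cardiomyocytes thus carried markers of another class, and which class differed by library. The libraries shared 8 to 19 barcodes a pair.

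A level is the sum of UMIs over the cells of a class, in CPM of all UMIs of that class, with its exact Poisson 95% interval in parentheses. Ratios carry exact conditional binomial 95% intervals. Both cover counting error only, and with 1 library a group there is no test of the conditions and no p-value. A gene with at least 20 UMIs in both sums together counted as measured, and a ratio of at least 2-fold in either direction counted as past the fold. The GFP-positive cardiomyocytes held 3408367 UMIs, against 893051 and 1041359 in the GFP-negative and RA cells, so the smaller sums set the precision of a ratio.

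In GFP-positive against RA cardiomyocytes, 4 of the 9 members were higher by 2-fold or more (Adora1, Rgs4, Rgs6 and Gnao1) and 1 was lower (Rgs2). Rgs4, with 21 UMIs against 1, and Adora1, with 163 against 4, reached the minimum of 20 UMIs through the GFP-positive cells alone. Over all 9829 measured genes, 16.9% were higher and 3.61% lower by the same rule. With at least 1% mitochondrial UMIs, 3 members were higher and 1 lower, against 14.8% and 3.57% of all measured genes. In GFP-positive against GFP-negative cardiomyocytes, 5 were higher (Chrm2, Adrb1, Adora1, Rgs6 and Gnao1) and Rgs2 was lower, against 13.8% and 3.49% of 9779 genes. Of those higher, Chrm2 (178 UMIs against 19), Adrb1 (72 against 9) and Adora1 (163 against 7) reached 20 UMIs through the GFP-positive cells alone. Both comparisons use the same GFP-positive cells and are not independent. In GFP-negative against RA cardiomyocytes, where 7 members were measured, none passed 2-fold in either direction, against 3.7% higher and 3.02% lower of 6920 genes. With at least 1% mitochondrial UMIs, none was higher and Chrm2 was lower, against 3.82% and 2.86% of 6228 genes. Chrm2 reached 20 UMIs there through RA alone, with 40 UMIs against 18 in the GFP-negative cells.

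**Figure D1:**
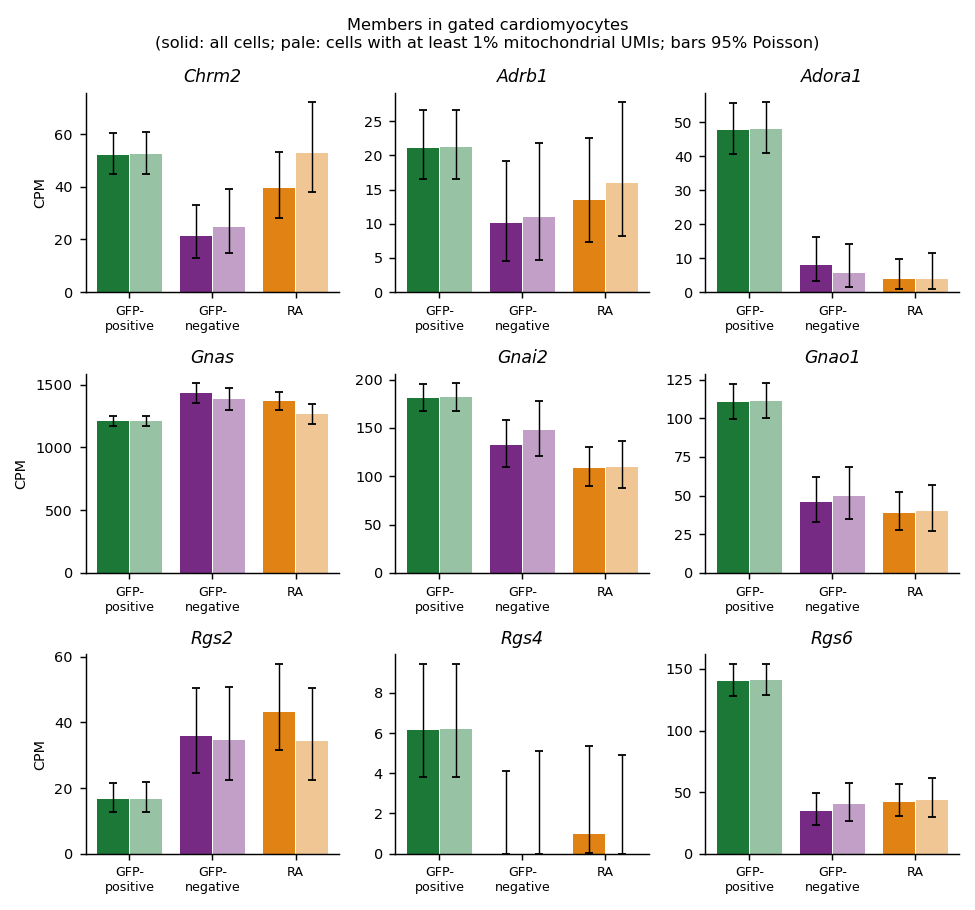
Levels of the 9 members in gated cardiomyocytes. Each panel has its own linear CPM axis, colours are libraries, solid bars are all gated cells, pale bars the cells with at least 1% mitochondrial UMIs, and error bars are exact Poisson 95% intervals. Adora1, Gnao1 and Rgs6 stand highest and Rgs2 lowest in the GFP-positive library, with and without the cells of low mitochondrial share.

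Adora1, Rgs6 and Gnao1 were past 2-fold higher in GFP-positive cardiomyocytes against both other libraries, and Rgs2 was past it lower. Their promoter letters are shown so that the genes can be set side by side. They are the 250 bases before an annotated RefSeq start, from the mouse build GRCm38.p6 and on the gene's strand, and were not read from these libraries, whose notes name the build mm9. Adora1 at chr1:134235458-134235707 (minus strand, the outer of its 2 listed starts), Rgs6 at chr12:82617249-82617498 (plus strand), Gnao1 at chr8:93810588-93810837 (plus strand) and Rgs2 at chr1:144004150-144004399 (minus strand) are given. Capitals mark matches of the T-box core GGTGTGA or of TGACG, the short form of the cyclic AMP response element, each searched on both strands.
Adora1: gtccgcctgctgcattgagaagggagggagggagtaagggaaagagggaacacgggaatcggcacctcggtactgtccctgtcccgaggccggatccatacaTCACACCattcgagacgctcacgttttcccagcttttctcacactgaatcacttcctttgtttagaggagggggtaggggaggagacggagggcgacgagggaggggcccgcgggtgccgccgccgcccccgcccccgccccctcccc
Rgs6: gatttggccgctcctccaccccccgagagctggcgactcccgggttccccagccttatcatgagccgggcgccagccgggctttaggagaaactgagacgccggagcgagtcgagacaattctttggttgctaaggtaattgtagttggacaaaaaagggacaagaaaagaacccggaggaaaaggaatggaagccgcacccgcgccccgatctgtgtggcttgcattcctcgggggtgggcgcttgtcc
Gnao1: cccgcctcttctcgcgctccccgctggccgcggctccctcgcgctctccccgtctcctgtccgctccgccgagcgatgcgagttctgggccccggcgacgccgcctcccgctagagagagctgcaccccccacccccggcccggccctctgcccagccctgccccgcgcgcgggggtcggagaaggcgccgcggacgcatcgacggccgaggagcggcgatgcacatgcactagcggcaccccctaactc
Rgs2: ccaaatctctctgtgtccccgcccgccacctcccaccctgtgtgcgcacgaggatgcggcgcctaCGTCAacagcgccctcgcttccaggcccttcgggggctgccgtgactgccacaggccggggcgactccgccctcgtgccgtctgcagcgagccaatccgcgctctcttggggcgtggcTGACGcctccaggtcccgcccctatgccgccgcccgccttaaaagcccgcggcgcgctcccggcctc
The short form was found at 2 places in the Rgs2 window, the T-box core once in the Adora1 window shown and not in that of its other listed start, and neither in the windows of Rgs6 and Gnao1. In windows not shown, Rgs4, higher than in RA, held 2 short forms. Adrb1, higher than in the GFP-negative library, held 1, and Chrm2, also higher than there, held none. The short form thus did not divide the higher members from the lower one. The full element TGACGTCA, which contains the short form, was found in none of the 8 members with an entry. Of the 32851 promoters of the same length in the table, 17.8% held the short form, 3.33% the T-box core and 1.55% the full element. In all, 8 of 9 members had an entry, and 4 of these (Adrb1, Rgs2, Rgs4 and Gnas) held a short form in at least 1 entry. This counts members over any of their 12 entries, while the shares above count single promoters, so they are in unlike units. A match is a description of the letters and not of binding.

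Among the member receptors, Adora1, which encodes the A1 receptor through which adenosine slows the sinus node, differed most. It had 163 UMIs in GFP-positive cardiomyocytes, 47.8 CPM (40.8 to 55.8), 7 UMIs in GFP-negative cells, 7.84 CPM (3.15 to 16.1), and 4 UMIs in RA cells, 3.84 CPM (1.05 to 9.83). The GFP-positive library was high, and the intervals of the other libraries overlapped each other and lay below it. The ratio was 12.4-fold over RA (4.77 to 46.2) and 6.10-fold over the GFP-negative library (2.89 to 15.4). It was 12.1-fold and 8.69-fold with at least 1% mitochondrial UMIs. At an equal depth of 5000 UMIs a cell, Adora1 was read in 26.0% of 169 GFP-positive, 8.16% of 49 GFP-negative and 5.08% of 59 RA cardiomyocytes (51.5%, 9.38% and 5.48% before thinning), with 15 and 14 shallower cells of the last 2 left out. In endothelial cells of the GFP-positive library (median depth 11454 UMIs) thinned the same way it was read in 0.164%, taken as the background. At 2000 UMIs a cell no cardiomyocyte was left out. The shares with Adora1 were then 7.69% (4.16 to 12.8) in GFP-positive, 1.56% (0.04 to 8.40) in GFP-negative and 0% (0 to 4.93) in RA cardiomyocytes. These exact binomial intervals overlapped.

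Chrm2, the gene of the M2 muscarinic receptor that carries vagal slowing, had 178 UMIs in GFP-positive cardiomyocytes, 52.2 CPM (44.8 to 60.5). It had 19 UMIs in GFP-negative cells, 21.3 CPM (12.8 to 33.2), and 41 in RA, 39.4 CPM (28.3 to 53.4). The GFP-negative level lay below the interval of the GFP-positive library, and the interval of RA overlapped those of both other libraries. The ratio to RA was 1.33-fold (0.94 to 1.91) and 0.99-fold (0.70 to 1.43) with at least 1% mitochondrial UMIs, where RA stood at 53.0 CPM. Nearly all of the RA signal was in those cells, which held 40 of its 41 UMIs. The ratio to the GFP-negative library was 2.45-fold (1.53 to 4.17), and 2.11-fold with at least 1% mitochondrial UMIs. GFP-negative cells were 1.85-fold lower than RA (1.05 to 3.38), and 2.13-fold lower with at least 1% mitochondrial UMIs. Thinned to 5000 UMIs, the shares with Chrm2 were 18.9%, 10.2% and 15.3%, and 1.48% in GFP-positive endothelial cells. With at least 1% mitochondrial UMIs they were 19.0% (13.4 to 25.8), 13.9% (4.67 to 29.5) and 26.5% (12.9 to 44.4), so that RA stood above the GFP-positive library, with overlapping exact binomial intervals.

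Adrb1, which encodes the main beta-adrenergic receptor of heart muscle, was read at 72, 9 and 14 UMIs, or 21.1 CPM (16.5 to 26.6) in GFP-positive, 10.1 CPM (4.61 to 19.1) in GFP-negative and 13.4 CPM (7.35 to 22.6) in RA cardiomyocytes. The intervals of the 3 libraries overlapped one another. The ratio to RA was 1.57-fold (0.88 to 3.02), and that to the GFP-negative library 2.10-fold (1.04 to 4.77), which was 1.92-fold (0.92 to 4.62) with at least 1% mitochondrial UMIs and so no longer past the fold. Of the GFP-positive cardiomyocytes, 26 had UMIs of both Chrm2 and Adrb1, 71 of Chrm2 alone, 26 of Adrb1 alone and 46 of neither. The product of the genes' shares gives 29.8 cells with both. Chrm2 and Adora1 were read together in 49 of the 169, where the product of shares gives 49.9. Both joint counts were thus near what the separate shares give.

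Of the alpha subunits, Gnao1, the gene of Go, had 377 UMIs in GFP-positive cardiomyocytes, 110.6 CPM (99.7 to 122), 41 UMIs in GFP-negative cells, 45.9 CPM (32.9 to 62.3), and 40 UMIs in RA, 38.4 CPM (27.4 to 52.3). GFP-positive cells were high, and the intervals of the other libraries overlapped. The ratio was 2.88-fold over RA (2.08 to 4.10) and 2.41-fold over the GFP-negative library (1.74 to 3.41), and 2.79-fold and 2.23-fold with at least 1% mitochondrial UMIs. Thinned shares were 39.1%, 16.3% and 13.6%, against 0.739% in GFP-positive endothelial cells. At 2000 UMIs a cell the cardiomyocyte shares were 16.6% (11.3 to 23.0), 17.2% (8.90 to 28.7) and 4.11% (0.86 to 11.5). GFP-positive and GFP-negative cells could not be told apart by this share.

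Gnai2, which encodes an inhibitory alpha subunit found in most cells, had smaller ratios. It was at 181 CPM (167 to 196) in GFP-positive, 132 CPM (109 to 158) in GFP-negative and 109 CPM (89.4 to 130) in RA cardiomyocytes. The ratio to RA was 1.67-fold (1.36 to 2.06) and that to the GFP-negative library 1.37-fold (1.12 to 1.68). The same ratios were 1.65-fold and 1.23-fold with at least 1% mitochondrial UMIs. Endothelial cells of the GFP-positive library held Gnai2 at 875 CPM and the 8 endothelial markers at 4760 CPM, of which GFP-positive cardiomyocytes carried 474 CPM. The part of this RNA in the Gnai2 difference was not tested.

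Gnas, the gene of the stimulatory alpha subunit, was read in nearly every cell of each library's cardiomyocytes and had ratios near 1. GFP-positive cardiomyocytes stood at 1209 CPM (1173 to 1247), GFP-negative at 1432 CPM (1355 to 1513) and RA at 1371 CPM (1301 to 1444). The ratios were 0.88 (0.83 to 0.94) to RA and 0.84 (0.79 to 0.90) to the GFP-negative library. With at least 1% mitochondrial UMIs the ratio to RA was 0.96 (0.89 to 1.03). The locus makes several transcripts with a shared end, which counts per gene cannot tell apart.

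Rgs6, which ends M2 signalling in the sinus node of mice, had 479 UMIs in GFP-positive cardiomyocytes, 141 CPM (128 to 154). It had 31 UMIs in GFP-negative cells, 34.7 CPM (23.6 to 49.3), and 44 in RA, 42.3 CPM (30.7 to 56.7). The GFP-positive library was high and the intervals of the other libraries overlapped. The ratio was 3.33-fold over RA (2.44 to 4.64) and 4.05-fold over the GFP-negative library (2.81 to 6.03), or 3.22-fold and 3.52-fold with at least 1% mitochondrial UMIs. It was read in 47.3% of thinned GFP-positive cardiomyocytes, 10.2% of GFP-negative and 20.3% of RA cells, and in 0.452% of GFP-positive endothelial cells. At 2000 UMIs a cell the cardiomyocyte shares were 20.7% (14.9 to 27.6), 6.25% (1.73 to 15.2) and 11.0% (4.85 to 20.5). The interval of the GFP-positive library then overlapped both others. In GFP-positive cardiomyocytes 130 of 169 had UMIs of both Rgs6 and Gnao1, and 8 had neither. The product of the genes' shares gives 125 cells with both, so the joint count was near it.

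Rgs2, which acts mainly on Gq and is an early-response gene in many cells, went the other way. It had 57 UMIs in GFP-positive cardiomyocytes, 16.7 CPM (12.7 to 21.7), 32 UMIs in GFP-negative cells, 35.8 CPM (24.5 to 50.6), and 45 in RA, 43.2 CPM (31.5 to 57.8). GFP-positive cells were low. The level was 2.58-fold lower than in RA (1.71 to 3.89) and 2.14-fold lower than in the GFP-negative library (1.34 to 3.36), and 2.05-fold and 2.06-fold lower with at least 1% mitochondrial UMIs. The 15 genes of the stress list, all detected and among them Fos, Jun and Egr1, summed to 3834 CPM in GFP-positive, 2457 in GFP-negative and 1576 CPM in RA cardiomyocytes, the opposite order to Rgs2. The 8 markers of macrophages, the class with the most Rgs2, summed to 18.2, 39.2 and 89.3 CPM in the same cardiomyocytes, with Mrc1 at 0 in the GFP-positive and RA cells. The part of stress and of macrophage RNA in the Rgs2 difference was not tested.

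Rgs4, which acts on Gi, Go and Gq and is known from the sinus node of mice, was scarce. It had 21 UMIs in GFP-positive cardiomyocytes, in 5.92% of the cells, 6.16 CPM (3.81 to 9.42), none in GFP-negative and 1 in RA. The ratio to RA was 6.42-fold, with an interval of 1.03 to 265, and rests on that 1 UMI. Against the GFP-negative library, with a floor of 3 UMIs per summed class, it was at least 1.83-fold. The RA UMI was in a cell with under 1% mitochondrial UMIs, and without such cells the ratio to RA was at least 1.56-fold and not past the fold. Mesothelial cells of the GFP-positive library held Rgs4 at 28.1 CPM. The 8 mesothelial markers summed to 129, 12.3 and 21.1 CPM in GFP-positive, GFP-negative and RA cardiomyocytes, with 0, 5 and 2 of them unread. At least 3 were read in 44, 0 and 0 of these cells. The part of mesothelial RNA in the Rgs4 difference was not tested.

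**Figure D2:**
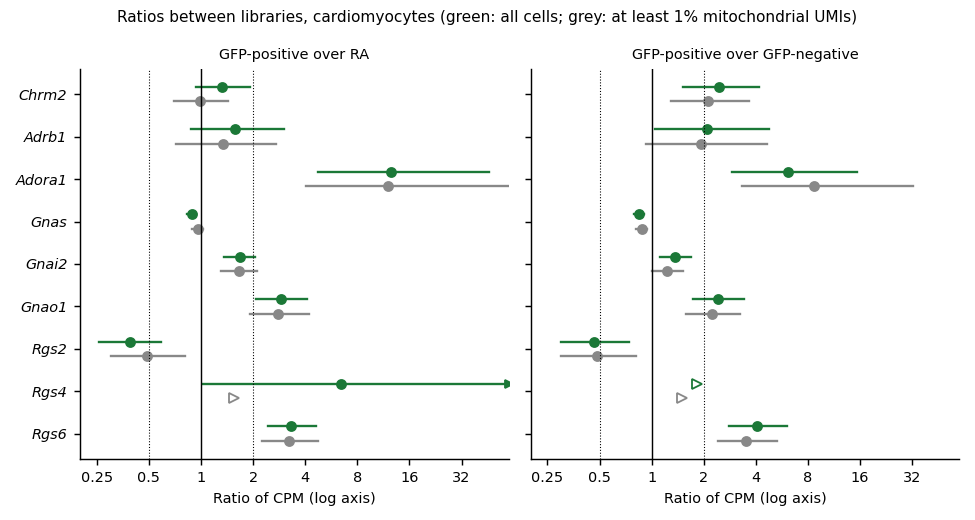
Ratios of CPM in GFP-positive over RA cardiomyocytes (left) and over GFP-negative cardiomyocytes (right) on a log axis, with exact conditional 95% intervals. Green is all gated cells, grey the cells with at least 1% mitochondrial UMIs, dotted lines mark 2-fold, and open triangles are lower bounds. Adora1, Gnao1 and Rgs6 lie past 2-fold in both panels and Rgs2 below 0.5.

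The Nppa-high cardiomyocytes, with Nppa at 0.2% of UMIs or more, were held by all 3 libraries, 18 GFP-positive, 40 GFP-negative and 55 RA. Within them Rgs6 was 2.32-fold higher in the GFP-positive library than in RA (1.43 to 3.79) and Rgs2 3.40-fold lower (1.31 to 11.2). Of 6 members measured there, those were the 2 past the fold, against 8.6% of 5501 genes higher and 5.24% lower. Gnao1 was at 59.4 CPM against 43.1 CPM (1.38-fold, 0.78 to 2.40). Adora1 had 13 UMIs against 3, below the count needed, at 30.9 and 4.04 CPM. In the GFP-negative library the Nppa-high cells held Chrm2 at 29.8 CPM, and Chrm2 was the 1 member higher in the GFP-positive cells (2.31-fold, 1.23 to 4.48). Rgs2 was the 1 member lower there, at 11.9 against 40.4 CPM (3.40-fold lower, 1.26 to 11.4). Over all 5095 measured genes, 6.03% were higher and 4.12% lower. Between the Nppa-high cells of the GFP-negative and RA libraries no member passed the fold, against 3.39% of 5719 genes higher and 3.22% lower.

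The GFP-positive cardiomyocytes were also divided by marker UMIs into 18 Nppa-high cells, 58 Pvalb-high cells (Pvalb at 0.02% of UMIs or more), 33 cells with Tbx18 or Isl1 and 60 remaining cells. The members took no part in this division. The Pvalb-high cells were highest for Rgs6, Adora1 and Gnao1. Of 8 further genes looked at, these cells had the most Shox2 of the 4 subsets (794 CPM), the most Cntn2, a gene of the conduction system (65.3 CPM), the most of the ventricular myosin gene Myl2 (1099 CPM) and the most Fos, a gene of the stress list (1321 CPM, against 684 to 938 CPM in the other subsets). The node gene Tbx3 was instead highest in the cells with Tbx18 or Isl1, at 135.8 CPM (103 UMIs) against 59.7 CPM (64 UMIs). The node gene Hcn4 was at 11.9 CPM from 9 UMIs and 10.3 CPM from 11 UMIs in the same subsets, too few to rank them. The part of stress in the differences of these members between subsets was not tested. Rgs6 was at 200 CPM (175 to 229) in them and 113 CPM in the other GFP-positive cardiomyocytes, 1.77-fold higher (1.47 to 2.13). Adora1 was at 67.1 CPM (52.5 to 84.5) against 39.0 CPM (1.72-fold, 1.25 to 2.37), and Gnao1 at 155 CPM (132 to 180) against 90.3 CPM (1.71-fold, 1.39 to 2.11). The ratios of Chrm2, 1.05 (0.76 to 1.45), and Gnai2, 1.01 (0.85 to 1.20), had intervals that included 1.

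The Nppa-high cells were lowest in Gnao1, at 59.4 CPM against 118 CPM in the others, 1.98-fold lower (1.32 to 3.11). Their Rgs6 was 99.8 CPM against 146 CPM, and their Chrm2 68.9 CPM against 49.9 CPM, a ratio of 1.38 whose interval (0.90 to 2.07) included 1. In the cells with Tbx18 or Isl1, factors of the venous part of the node, Rgs4 was at 14.5 CPM from 11 UMIs against 3.77 CPM from 10, 3.84-fold higher (1.48 to 10.1), and Adrb1 at 29.0 against 18.9 CPM (1.54-fold, 0.89 to 2.59). These were 36 member-by-subset ratios from the cells of 1 library, and the spread between animals is not in their intervals.

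**Figure D3:**
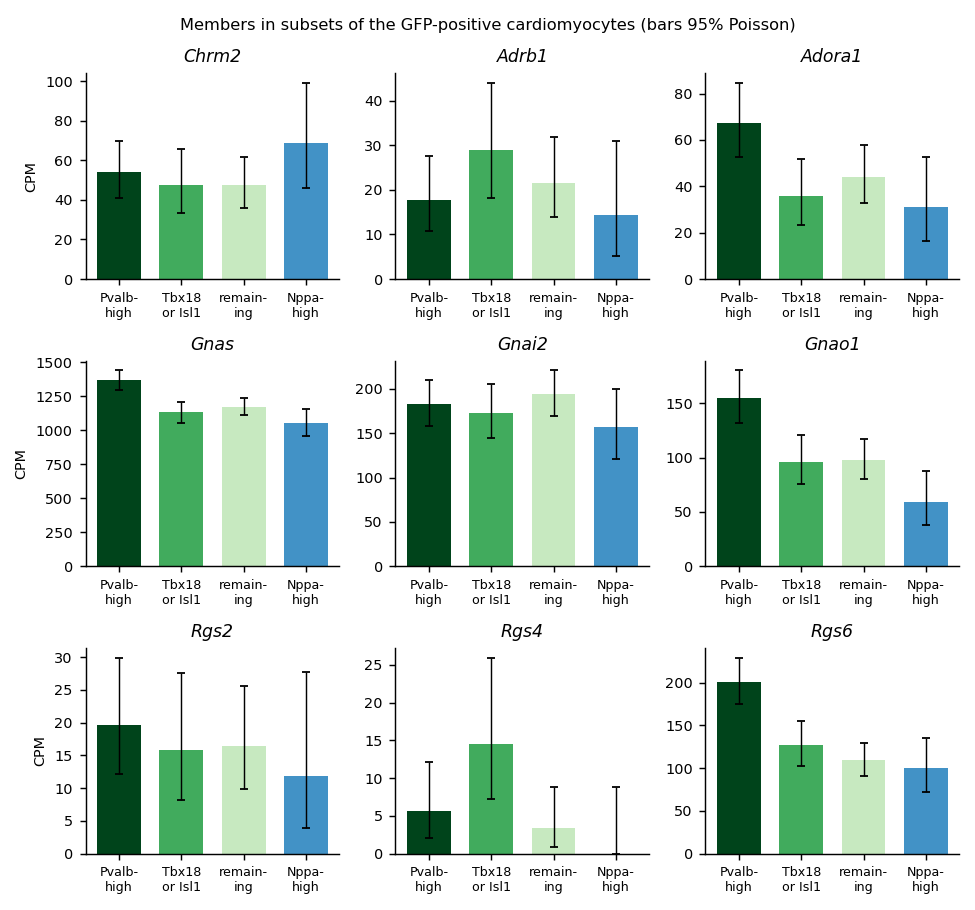
Levels of the members in 4 subsets of the GFP-positive cardiomyocytes, in CPM on linear axes with exact Poisson 95% intervals. Adora1, Gnao1 and Rgs6 are highest in the Pvalb-high cells, and Rgs4 in the cells with Tbx18 or Isl1.

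Compared with the other cell classes of the same library, Chrm2, Adora1, Rgs6 and Gnao1 were highest in cardiomyocytes in all 3 libraries, and Adrb1 in the GFP-positive library. That is 5 of 9 members among 3 classes in the GFP-positive library (18% of 14229 genes), 4 of 9 among 6 classes in the GFP-negative library (8.09% of 13657) and 4 of 9 among 5 classes in RA (11% of 12498). Only classes of at least 50 cells were compared. The shares of all genes cover genes with at least 20 UMIs over the classes, a minimum not asked of the members. Adora1 was under it in the GFP-negative library, with 7 UMIs against 6 in fibroblasts. It was also under it in RA, with 4 UMIs against 2 (20.5-fold, 2.94 to 227). Without Adora1, the members counted in those libraries were Chrm2, Rgs6 and Gnao1. The excess over the next class was large in the GFP-positive library, at 46.7-fold over mesothelium for Rgs6, 41.3-fold for Gnao1 and 35.7-fold for Adora1, and 17.9-fold over endothelium for Chrm2. In GFP-negative cells Chrm2 was 4.63-fold (1.94 to 12.2) over endothelium and Gnao1 5.08-fold over fibroblasts. In RA Chrm2 was 46.7-fold over fibroblasts, where 9 UMIs were counted.

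Outside the GFP-positive library, the levels of Adrb1 in cardiomyocytes and in macrophages could not be told apart at this depth. Macrophages had 12.7 CPM (6.57 to 22.2) in the GFP-negative library and 13.9 CPM (7.17 to 24.3) in RA, each from 12 UMIs, and their intervals overlapped those of cardiomyocytes. The 20 macrophages of the GFP-positive library had none. Fibroblasts followed at 3.38 and 2.81 CPM, and these intervals lay below those of macrophages.

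Rgs2 was highest in macrophages, at 431 CPM (391 to 475) in the GFP-negative library and 612 CPM (561 to 666) in RA. Cardiomyocytes stood 12.04-fold and 14.2-fold lower. Mural cells had 112 CPM, endothelial cells 72.4 and fibroblasts 59.6 CPM in the GFP-negative library, where the intervals of the last 2 overlapped. Within GFP-positive endothelium, Rgs2 was 72.9 CPM (67.1 to 79.1) in arterial, 58.3 CPM in other, 53.9 CPM in lymphatic and 25.1 CPM (21.9 to 28.7) in endocardial cells. Endocardial cells were lowest in RA as well, at 16.9 CPM from 13 UMIs against 140 CPM in arterial cells. The arterial cells of RA were under 50.

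Rgs4 was highest in mural cells in the GFP-negative library. These cells, which wrap vessels as smooth muscle or pericytes, held 231 CPM (197 to 271) in the GFP-negative library against 29.8 CPM (27.6 to 32.1) in fibroblasts, and 63.8% of the 69 mural cells had a UMI. Of the mural subsets, each under 50 cells, the 22 pericyte-gated cells were at 329 CPM (256 to 417) and the 35 smooth-muscle-gated cells at 148 CPM (109 to 197). Fibroblasts were highest in RA at 16.4 CPM (14.1 to 19.0), 1.82-fold under the GFP-negative fibroblasts (1.54 to 2.16). Mesothelial cells were highest in the GFP-positive library at 28.1 CPM (24 to 32.7), where cardiomyocytes stood 4.56-fold lower.

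Gnas and Gnai2 were highest in endothelium in every library. Gnas was 2109 CPM in the GFP-positive, 3294 in the GFP-negative and 3369 CPM in the RA endothelium, so GFP-positive endothelial cells were 1.60-fold under RA (1.56 to 1.64). Endocardial cells stood at 1812, 1772 and 1634 CPM in the same order of libraries, and the endothelial cells gated as neither endocardial, arterial nor lymphatic at 2045, 3786 and 4365 CPM. The endocardial cells of the GFP-negative library were under 50. In the GFP-negative library mural cells came next, at 2513 CPM (2395 to 2635). Fibroblasts had 1928 CPM there and 1926 CPM in RA, where they came next after endothelium. Gnas was lowest in erythroid cells at 236 and 249 CPM. Gnai2 in endothelium was 875, 1042 and 907 CPM, followed by macrophages at 752 CPM in the GFP-negative and 743 CPM in the RA library. Cardiomyocytes were 4.83-fold to 8.35-fold under endothelium in Gnai2.

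A trace of Chrm2 was read in endocardial cells of the GFP-positive library, the inner lining of the heart, at 6.75 CPM (5.13 to 8.73) from 58 UMIs. Other endothelial cells of that library had 0.59 CPM (0.16 to 1.5) and arterial cells 1.37 CPM. In the GFP-negative library endocardial cells, under 50 in number, had 14.1 CPM from 7 UMIs, and in RA 2.59 CPM from 2 UMIs. Adora1 was at 0.58, 0.15 and 0.62 CPM in the endocardial, other and arterial cells of the GFP-positive library.

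**Figure D4:**
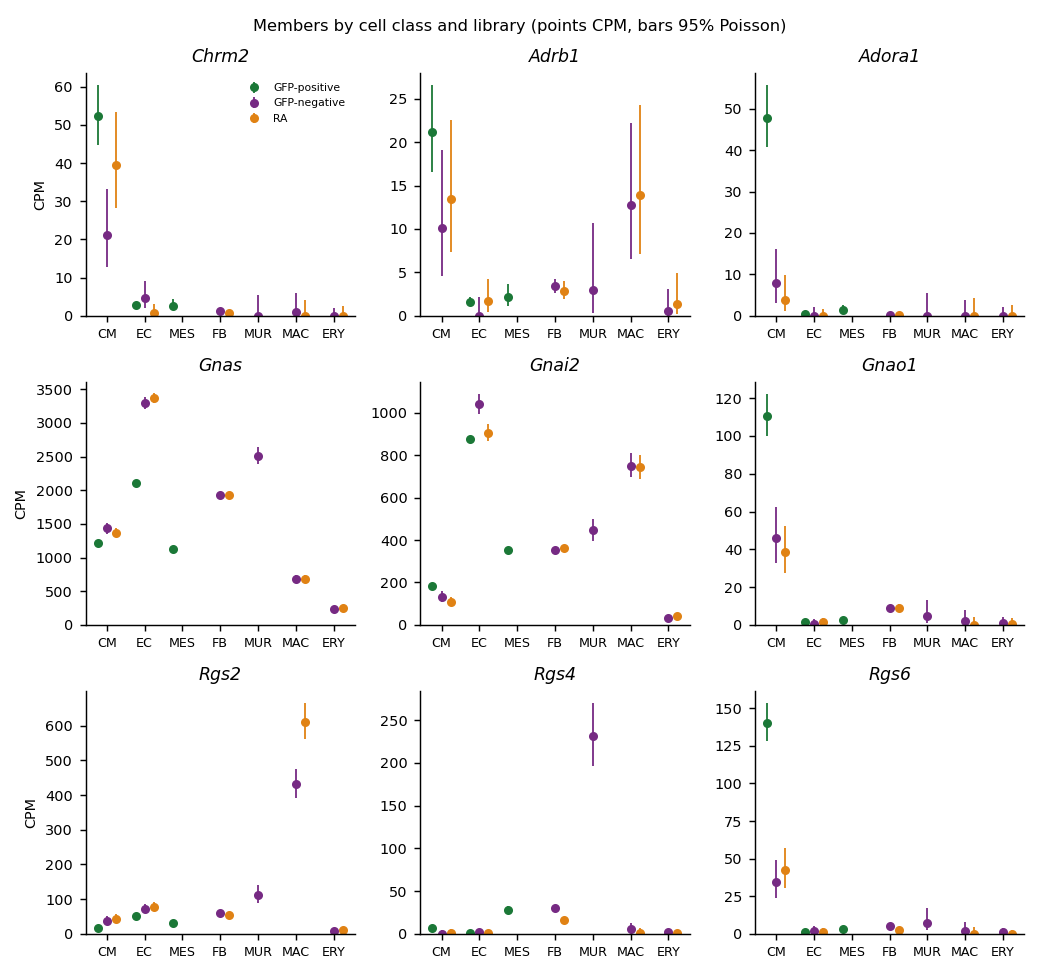
Levels of the members by cell class and library, in CPM on linear axes with exact Poisson 95% intervals. CM are cardiomyocytes, EC endothelial, MES mesothelial, FB fibroblasts, MUR mural, MAC macrophages and ERY erythroid cells, shown where a library had at least 50. Chrm2, Adora1, Gnao1 and Rgs6 peak in cardiomyocytes, Rgs2 in macrophages, Rgs4 in mural cells, and Gnas and Gnai2 in endothelium.

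The wider pathway was described by a list of 86 further receptors, G protein subunits, RGS proteins, effectors and desensitising proteins. In GFP-positive against RA cardiomyocytes 48 were measured, 12 were higher and 4 lower, where 16.9% and 3.61% of all measured genes were. The list's median log2 ratio was 0.62, and that of all genes 0.17. Against the GFP-negative library 49 were measured, 12 were higher and 4 lower, where 13.8% and 3.49% of all measured genes were, with a median of 0.27 against 0.15. In GFP-negative against RA cardiomyocytes none of 33 measured genes passed the fold, against 3.7% higher and 3.02% lower of all measured genes.

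Of 19 further receptors 3 were measured. Calcrl, a receptor for calcitonin-family peptides that endothelium also makes, was 14.7-fold higher than in RA (28.2 against 1.92 CPM, the latter 2 UMIs), and endothelial marker RNA moved the same way, from 61.5 to 474 CPM. Its part in the Calcrl difference was not tested. The neuropeptide Y receptor gene Npy1r was at 9.10 against 3.84 CPM (2.37-fold, 0.84 to 9.23), with an interval that included 1, and the alpha-adrenergic receptor gene Adra1b at 19.4 against 21.1 CPM. Gnaq, the gene of Gq, was the 1 of 6 measured alpha subunits past the fold, at 33.4 against 10.6 CPM (3.17-fold, 1.70 to 6.52). That count was near the 16.9% of all measured genes that were higher. Gna13 was at 1.75-fold (1.12 to 2.86) and, with at least 1% mitochondrial UMIs, at 2.24-fold (1.26 to 4.32), which made 2 of 6 past the fold. In those cells 14.8% of all measured genes were higher. Gna12 was at 0.99-fold and Gnai3 at 0.77-fold.

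Of 8 measured beta and gamma subunits, none was higher and Gng10 was lower, by 2.31-fold. Of all measured genes 16.9% were higher and 3.61% lower. Gnb1 was at 169 against 97.0 CPM (1.74-fold, 1.41 to 2.17), Gng11 at 1.65-fold and Gng2 at 0.62-fold. Of 8 measured further RGS genes 3 were higher and 2 lower, beside the same shares of all measured genes. Rgs10 was at 52.2 against 7.68 CPM (6.80-fold, 3.38 to 16) and Rgs12 at 137 against 43.2 CPM (3.16-fold, 2.33 to 4.40), and against the GFP-negative library they were 5.83-fold and 3.21-fold higher. Rgs5, which pericytes make, was 3.47-fold lower than in RA and 6.82-fold lower than in the GFP-negative library, and Rgs19 was 2.18-fold lower than in RA. Rgs7bp was 4.67-fold higher than in RA with at least 1% mitochondrial UMIs, on 1 UMI in RA (0.75 to 193), which made 4 of 8 higher. In those cells 14.8% of all measured genes were higher. In the GFP-negative library, mural cells held Rgs5 at 3018 CPM and fibroblasts at 454 CPM. The 8 mural markers summed to 635, 587 and 414 CPM in GFP-positive, GFP-negative and RA cardiomyocytes. The 8 fibroblast markers summed to 214, 1759 and 1141 CPM in the same cells. The part of mural and of fibroblast RNA in the Rgs5 difference was not tested.

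Of 16 measured effectors 4 were higher and 1 lower, against 16.9% and 3.61% of all measured genes. The adenylyl cyclase genes Adcy5, at 67.2 against 27.8 CPM (2.41-fold, 1.64 to 3.68), and Adcy6, at 43.1 against 19.2 CPM (2.25-fold, 1.40 to 3.78), make the cyclic AMP that Gs raises. They were at 1.96-fold and 1.72-fold with at least 1% mitochondrial UMIs, and against the GFP-negative library at 1.43-fold (1.02 to 2.04) and 1.48-fold (0.97 to 2.34), not past the fold in either case. Against that library 2 of 17 measured effectors were higher, Pde2a and Pde4d, and 2 lower, Adcy1 and Pde4a. Of all measured genes 13.8% were higher and 3.49% lower there. Against RA, the phosphodiesterase genes, whose products break down cyclic AMP, went both ways. Pde3b was 2.65-fold higher on 3 UMIs in RA (0.81 to 13.7), Pde1c 2.07-fold higher and Pde4a 3.07-fold lower. Prkar1a, a regulatory subunit of protein kinase A, was at 0.63-fold (0.57 to 0.70). The potassium channel genes Kcnj3 and Kcnj5, on which M2 and A1 receptors act, were at 76.0 against 41.3 CPM (1.84-fold, 1.33 to 2.60) and 113 against 67.2 CPM (1.68-fold, 1.3 to 2.20). They did not pass the fold, and against the GFP-negative library the ratios were 1.13-fold (0.85 to 1.52) and 1.22-fold (0.96 to 1.56), with intervals that included 1. Of 7 measured desensitising genes 2 were higher, the receptor kinase gene Grk4 at 3.51-fold and the arrestin gene Arrb1 at 2.24-fold, each on 2 or 3 UMIs in RA with an interval that included 1. Of all measured genes 16.9% were higher. Of the 7, only Grk4 was higher with at least 1% mitochondrial UMIs, against 14.8% of all measured genes. The median log2 ratio of the 7 went from 0.36 to -0.05. Against the GFP-negative library 3 of 7 were higher, beside 13.8% of all measured genes. Grk5 was at 0.61-fold and Arrb2 at 0.78-fold.

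**Figure D5:**
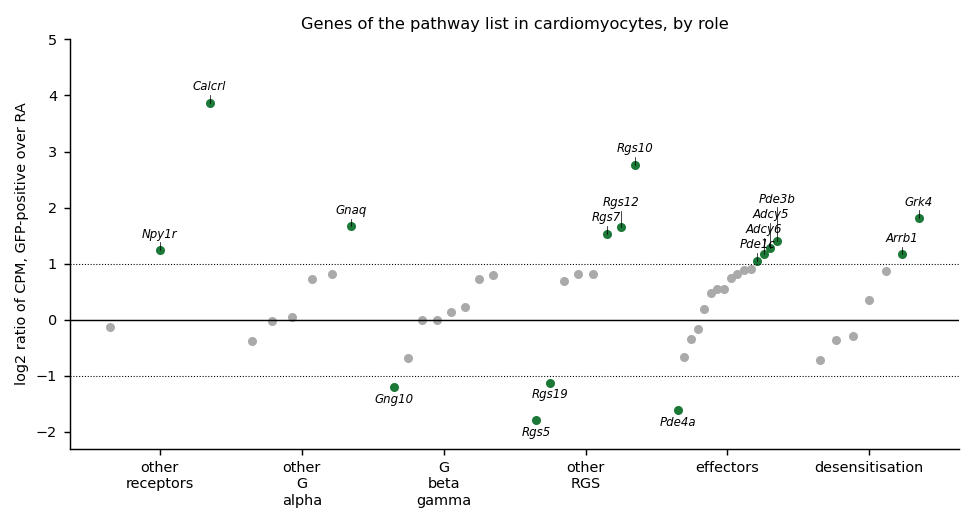
Log2 ratios of CPM in GFP-positive over RA cardiomyocytes for the 48 measured genes of the pathway list, grouped by role. Dotted lines mark 2-fold, and named green points lie past it. Calcrl and Rgs10 are the highest and Rgs5 and Pde4a the lowest.

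Over the 14 class-by-library groups of at least 50 cells, the genes with profiles most like each member were found by Pearson r on log2(CPM + 10), among 11957 genes. The groups share libraries and one cell class holds most of the signal for several members, so r describes the profile and carries no test. Adora1 was closest to Fcmr (r = 0.997) and Cacna2d2 (r = 0.992), a subunit of calcium channels, and Fcmr was at 69.2 CPM in GFP-positive cardiomyocytes. Chrm2 was closest to Tox3 (r = 0.993) and Pirt (r = 0.982). Rgs6 was closest to Lrrc4b (r = 0.992) and Gm44386 (r = 0.989), and Gnao1 to Sphkap (r = 0.981), which encodes an anchoring protein of protein kinase A, and Lrrc4b (r = 0.980). Adrb1 was closest to Glrx (r = 0.970) and Camk1d (r = 0.95), Rgs2 to Mast3 (r = 0.975) and P2rx4 (r = 0.971), and Rgs4 to Mark1 (r = 0.960) and Slc6a9 (r = 0.943). Gnas was closest to Tmtc3 (r = 0.982) and Fkbp1a (r = 0.980), and for Gnai2 Ssbp4 is given (r = 0.983). With a pseudocount of 1 in place of 10, 11 of the 18 names were named again, and none for Gnas or Gnao1.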

How the data were processed

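Droplet-based single-cell libraries were built with a 10X Genomics kit, per the labels' protocols. The files hold whole UMI counts for each gene in each barcode, as the authors deposited them. Cell Ranger and the build mm9 are named per the submitters' processing notes, with no version. Whole-library totals were 50416748 UMIs (GFP-positive), 38204709 (GFP-negative) and 19975326 (RA).

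Barcodes were filtered and gated as given above. Other classes took the set of 8 markers with the most detected, at least 3 and at least 2 more than any other, and erythroid cells had 50% or more haemoglobin UMIs. Endothelial and mural cells were divided by further marker sets. Doublets were not removed. Counts were summed per class and library, and the exact intervals are at 95%. Where a sum was 0, a floor of 3 UMIs per summed class gave a bound. Ratio calls and thinning were checked on simulated data. The self-test is not quoted. Python 3.11.15, numpy 2.4.6, scipy 1.17.1, pandas 2.3.3 and matplotlib 3.10.9 were used.

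The members, lists and gates were chosen with earlier results of these data known. Named genes were the 9 members, the 2 most similar genes of each (1 gene is not reported here), and of the pathway list the 2 highest and 2 lowest measured ratios of each role. Adcy6, Pde1c, Kcnj3 and Kcnj5 were named after their values were seen. The cells with at least 1% mitochondrial UMIs and the Nppa-high cells alone were alternatives added after seeing the data. Promoter sequences are from RefSeq on GRCm38.p6.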

Additional observations from a re-analysis of the deposited data

Results flagged for a closer look

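Some groups of cells were too small or too mixed for the comparisons between classes, and a member was still well above the highest compared class of its library there. Rgs2 was at 216.7 CPM (57 UMIs) in the 20 macrophages of the GFP-positive library, where the endothelium, the highest compared class, had 52.1 CPM. Rgs4 was at 243.7 CPM (44 UMIs, at most 9 in a cell) in the 14 mural cells of RA, where fibroblasts had 16.4 CPM. Rgs4 was also at 49.2 CPM (107 UMIs) in the 172 RA cells that no gate took.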

How the results depend on the processing

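The numbers of members past 2-fold held to within 1.5 times in most of the settings tried, and the exceptions follow. With the cardiomyocyte gate at 5% of UMIs, 3 members were higher in GFP-positive than GFP-negative cells (Chrm2, Adora1 and Rgs6). With only cells that carried fewer than 3 markers of every other class and under 5% haemoglobin, which left 13, 11 and 13 cells, 2 members (Rgs6 and Gnai2) were higher and 0 lower in GFP-positive cells, against RA and against the GFP-negative library alike. Adora1, Gnao1 and Rgs2 were thus not counted there. Fewer cells were left there, and no other cause was tested. With each cell thinned to 5000 UMIs, 0 members were lower in GFP-positive than GFP-negative cells. Between GFP-negative and RA cells, 1 member (Adora1) was higher with a minimum of 10 UMIs or of 1 UMI, and 1 (Chrm2) was lower at 1.5-fold and with at least 1% mitochondrial UMIs. In Nppa-high cells alone, 1 member was higher than in RA (Rgs6) and 1 than in the GFP-negative library (Chrm2). The share of all measured genes is given above only for cells with at least 1% mitochondrial UMIs and for Nppa-high cells. For the other settings it is not given, so those counts are not a result about the members. The cause of these changes was not tested beyond the counts given. Of the members' single ratios under the alternatives, 236 stayed within the counting interval and 36 moved, and none changed sign past the fold. Of the 36 that moved, 14 came from the cells with fewer than 3 markers of every other class, the most of any setting. Of the thinned shares of cells with a UMI, 20 were counted as the same and 16 as moved. Those of Adora1, Gnao1 and Rgs6 at 2000 UMIs a cell are given above.

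The order of classes was not recomputed for the settings that left under 50 cardiomyocytes in a library, nor for the other minima, the 1.5-fold rule and the Nppa-high cells. Depth limits Rgs4, Adora1 and Adrb1 in the GFP-negative and RA cardiomyocytes, where each had 14 UMIs or fewer. No paired analysis was possible because each group is 1 library.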
